A study of Mus musculus with 2 samples.

Results

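The genes described here are 10 core genes of TGF-beta signalling: the ligands Tgfb1, Tgfb2 and Tgfb3, the receptors Tgfbr1 and Tgfbr2, the signal transducers Smad2, Smad3 and Smad4, and the inhibitors Smad7 and Skil. They were chosen by gene name, and all 10 were found among the 12707 protein-coding genes of the deposited table. RNA was sequenced from live CD45-negative cells that were sorted from Py8119 tumours, 1 library from tumours of Mtdh knock out (KO) hosts and 1 from tumours of Mtdh wild type (WT) hosts. Py8119 is a mouse mammary tumour line of mesenchymal character, and the injected tumour cells are labelled wild type for Mtdh in both libraries, so the groups differ in the host genotype alone as far as the labels go. The gate is meant to remove leukocytes and leaves tumour cells mixed with the non-leukocyte cells of the host, which were not separated. Leukocyte marker RNA was still present in both libraries, as given below. No source used here gives the age or strain of the mice, the site of injection or the number of tumours behind a library. With 1 library per host genotype no difference below has a replicate check, no p-value was computed, and every value describes these 2 libraries.

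TGF-beta ligands are secreted as latent precursors, held in the matrix by latent TGF-beta binding proteins and released by proteases and integrins. Active ligand binds the type II receptor, which recruits and phosphorylates the type I receptor, and this in turn phosphorylates SMAD2 and SMAD3, which join SMAD4 and act on target genes in the nucleus. SMAD7 and the co-repressor SnoN, encoded by Skil, are induced by the pathway and restrain it. In mammary tumours the pathway is known for restraining growth of normal epithelium, for driving a mesenchymal state and matrix production, and for suppressing T cells.

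Read counts were recovered from the deposited values, which gave 23381855 reads for the KO-host library and 26069383 for the WT-host library. Levels are given below as reads, as RPM (reads scaled to a library total of 1000000) or as the deposited FPKM, which the authors computed over the whole genomic span of a gene, introns included. Ratios are RPM in the KO-host library over RPM in the WT-host library, with a 95% counting interval (exact conditional binomial) that covers counting error only, not differences between animals or library preparations. Mtdh itself was at FPKM 15.7 in the KO-host library and 17.3 in the WT-host library (a ratio of 0.909 in reads). The tumour cells carry the gene in both libraries and were not separated from host cells, so this value does not check the host genotype. Genes of a mesenchymal list (Vim, Twist1, Prrx1 and others, 8 of 8 listed) summed to 5248 RPM in the KO-host library and 5687 RPM in the WT-host library. Vim held 2907 RPM and 3170 RPM of these, and Mmp3 was listed at 0 in the KO-host library. Tumour and host cells were not separated, so these sums do not measure the share of tumour cells.

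Of the 10 genes, 6 had more RPM in the KO-host library (Skil, Tgfb1, Tgfb3, Tgfbr1, Smad7 and Smad3) and 4 had fewer (Smad2, Tgfb2, Smad4 and Tgfbr2). The counting interval lay above 1 for 6 of the 10 and below 1 for 4, but at this depth the same holds for most genes: of all 10659 genes with at least 100 reads over both libraries and a value above 0 in each, it lay above 1 for 36.7% and below 1 for 45.5%. The signs of the 10 were the same under the 3 other scalings tried. All 10 differences were moderate: 0 genes were higher by 2-fold or more and 0 were lower by 2-fold or more. Among the 10659 genes, 8.43% were 2-fold higher and 11.4% were 2-fold lower. At 1.5-fold, Skil and Tgfb1 were higher (2 of 10) and 0 were lower, against 15.7% of all these genes higher and 20.8% lower, so the count of 2 lies near the background. On the deposited log2(FPKM + 1) scale, 0 of the 9 genes with a mean of 1 or more differed by 1 or more, against 2.31% higher and 2.64% lower among 6057 such genes. Skil alone passed a difference of 0.5 there (1 higher, 0 lower), against 8.73% of such genes higher and 10.5% lower. The median log2 read ratio of the 10 genes was 0.29, beside -0.06 over all genes with at least 100 reads, whose quartiles were -0.47 and 0.32. Of the 10, 5 lay above that upper quartile and 0 below the lower one. In sorted cells of mixed origin, more cells of a type and more RNA per cell cannot be told apart.

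**Figure D1:**
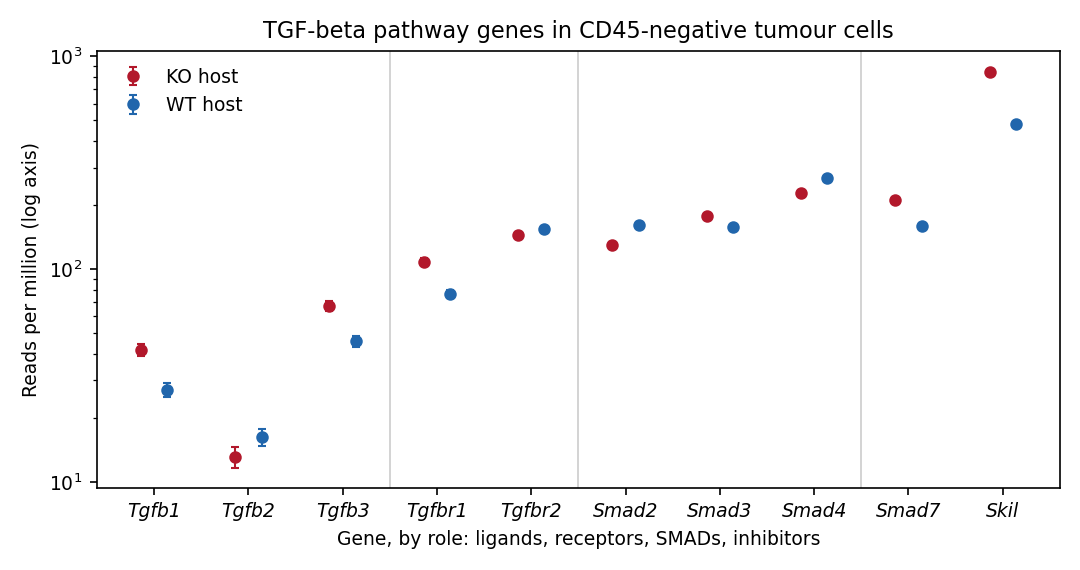
RPM (log axis) of the 10 TGF-beta pathway genes in the KO-host library (red) and the WT-host library (blue), 1 library each, with 95% exact Poisson counting intervals, most of them smaller than the points. Skil stands highest in both libraries and Tgfb2 lowest, and the red point is above the blue one for 6 of the 10 genes.

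The ligands split into a pair that was higher in the KO-host library and Tgfb2, which was lower. Tgfb1 (ENSMUSG00000002603, chromosome 7, 25386427 to 25404503, plus strand, mm39) encodes the most widely expressed ligand, which platelets and leukocytes also make. It had 977 reads in the KO-host library and 706 in the WT-host library, or 41.8 and 27.1 RPM. This is a ratio of 1.54 (counting interval 1.40 to 1.70). Tgfb3 (chromosome 12, 86103519 to 86125816, minus strand) encodes a ligand typical of mesenchymal cells and had 1569 reads in the KO-host library and 1192 in the WT-host library, a ratio of 1.47 (1.36 to 1.58). Its span shares 5149 bases with Ttll5 on the other strand, and strand handling is not given in the sources used here, so reads of the shared end cannot be assigned. Ttll5 had 903 reads in the KO-host library and 815 in the WT-host library, a ratio of 1.24. Tgfb2 (chromosome 1, 186354989 to 186438187, minus strand), a ligand that needs the co-receptor betaglycan for strong binding, had 305 reads in the KO-host library and 422 in the WT-host library. It was 1.24-fold lower (counting interval 1.07 to 1.44), the widest interval of the 10 genes. Between the ligands, Tgfb1 moved against Tgfb2: the reads of Tgfb1 over those of Tgfb2 were 3.20 in the KO-host library and 1.67 in the WT-host library, a ratio of ratios of 1.91 (1.61 to 2.28, normal approximation on the log scale). Tgfb1 over Tgfb3 was 0.623 in the KO-host library and 0.592 in the WT-host library, a ratio of ratios of 1.05 whose interval (0.930 to 1.19) includes 1.

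Marker RNA of other cell types that can make these ligands was summed in each library. Platelet markers (4 of 6 listed) summed to 3.58 RPM in the KO-host library and 8.74 RPM in the WT-host library, which rests on few reads, and Itga2b went against the sum with 53 reads in the KO-host library and 25 in the WT-host library. Pan-leukocyte markers (9 of 10 listed) summed to 26.4 RPM in the KO-host library and 28.5 RPM in the WT-host library, with 5 of the 9 higher and 4 lower in the KO-host library. Without Arhgdib, which had the widest gap, the sums were 23.1 RPM in the KO-host library and 20.3 RPM in the WT-host library. Ptprc, the gene of CD45 itself, had 64 reads in the KO-host library and 46 in the WT-host library. Macrophage and monocyte markers (10 of 10 listed) summed to 224 RPM in the KO-host library and 189 RPM in the WT-host library, mostly Lyz2 at 148 RPM and 134 RPM. Of these, 8 were higher and 2 lower in the KO-host library. The widest gap was of Mpeg1, at 40.7 RPM in the KO-host library and 14.5 RPM in the WT-host library. Without Mpeg1 the sums were 184 RPM and 174 RPM. Fibroblast markers (9 of 10 listed) summed to 392 RPM in the KO-host library and 997 RPM in the WT-host library, and most of that gap was Col1a1, at 88.1 RPM in the KO-host library and 618 RPM in the WT-host library. Without Col1a1, which is also counted among the TGF-beta targets below, the fibroblast sums were 304 RPM and 379 RPM in the KO-host and WT-host libraries. Of the 9 fibroblast markers 8 were lower in the KO-host library, though Pdgfra was nearly level (216 RPM in the KO-host library and 224 RPM in the WT-host library) and Ly6c1 was higher (186 reads in the KO-host library and 4 in the WT-host library). Pericyte markers (5 of 9 listed) summed to 93.4 RPM in the KO-host library and 424 RPM in the WT-host library, mostly Pdgfrb at 72.3 RPM and 353 RPM. Of these 5, Cspg4 was listed at 0 in the KO-host library, and Abcc9 went the other way with 55.7 reads in the KO-host library and 1 in the WT-host library. Epithelial markers (6 of 8 listed) summed to 333 RPM in the KO-host library and 206 RPM in the WT-host library, with 6 higher and 0 lower in the KO-host library. Krt8 had the widest gap, at 173 RPM in the KO-host library and 122 RPM in the WT-host library. Tumour and host cells were not separated, so the cells that hold this epithelial RNA are not known. The part of all these markers in the values of the 10 genes was not tested.

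Of the receptors, Tgfbr1 was higher in the KO-host library and Tgfbr2 was nearly level. Tgfbr1 (chromosome 4, 47353222 to 47414932, plus strand) encodes the type I receptor kinase that phosphorylates SMAD2 and SMAD3. It had 2537 reads in the KO-host library and 1987 in the WT-host library, or 108.5 and 76.2 RPM, a ratio of 1.42 (counting interval 1.34 to 1.51). Tgfbr2 (chromosome 9, 115913361 to 116004429, minus strand) encodes the type II receptor, which binds ligand first. It had 3384 reads in the KO-host library and 4038 in the WT-host library, 1.07-fold lower (1.02 to 1.12). The log2 read ratio of Tgfbr2, -0.10, lay near the median of -0.06 over all genes with at least 100 reads. With that median set to 0 it was -0.03. The reads of Tgfbr1 over those of Tgfbr2 were therefore 0.750 in the KO-host library and 0.492 in the WT-host library, a ratio of ratios of 1.52 (1.41 to 1.64). Of all receptor reads, Tgfbr1 held 42.8% in the KO-host library (exact binomial 95% interval 41.6% to 44.1%) and 33.0% in the WT-host library (31.8% to 34.2%).

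The promoters of Tgfb1, Tgfb2, Tgfbr1 and Tgfbr2 are shown. They were picked because Tgfb1 and Tgfbr1 were higher in the KO-host library, Tgfb2 was lower and Tgfbr2 was slightly lower. RefSeq promoter entries (GRCm38.p6) were at hand for 5 of the 10 genes. Tgfbr1 had 2 entries there, of which only the printed sequence was used. The 250 bases before the start are printed 5′ to 3′ for 4 of them. Capitals mark 4-letter SMAD boxes (AGAC, or GTCT on the other strand) and 6-letter GC boxes (GGGCGG, or CCGCCC on the other strand), which do not overlap each other here.
Tgfb1 (chr7:25686752-25687001, plus strand): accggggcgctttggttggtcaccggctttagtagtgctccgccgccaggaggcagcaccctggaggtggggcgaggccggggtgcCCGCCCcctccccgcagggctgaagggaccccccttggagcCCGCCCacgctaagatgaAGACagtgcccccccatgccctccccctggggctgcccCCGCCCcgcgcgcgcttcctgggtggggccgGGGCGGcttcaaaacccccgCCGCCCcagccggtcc
Tgfbr1 (chr4:47352972-47353221, plus strand): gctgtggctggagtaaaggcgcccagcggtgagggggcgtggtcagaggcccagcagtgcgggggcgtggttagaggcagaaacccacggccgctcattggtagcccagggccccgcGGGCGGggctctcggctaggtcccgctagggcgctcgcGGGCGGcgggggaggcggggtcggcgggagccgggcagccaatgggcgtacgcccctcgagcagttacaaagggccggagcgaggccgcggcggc
Tgfb2 (chr1:186705990-186706239, minus strand): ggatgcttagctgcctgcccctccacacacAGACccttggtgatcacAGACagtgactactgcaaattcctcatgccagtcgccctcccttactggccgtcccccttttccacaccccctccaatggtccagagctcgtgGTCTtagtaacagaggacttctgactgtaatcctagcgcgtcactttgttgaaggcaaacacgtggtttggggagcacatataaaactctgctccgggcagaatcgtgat
Tgfbr2 (chr9:116175364-116175613, minus strand): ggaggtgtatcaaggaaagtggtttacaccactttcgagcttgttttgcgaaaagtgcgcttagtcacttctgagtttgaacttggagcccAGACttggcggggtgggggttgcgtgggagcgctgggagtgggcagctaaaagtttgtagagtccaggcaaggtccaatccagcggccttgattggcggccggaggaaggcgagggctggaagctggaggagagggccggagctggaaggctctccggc

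Tgfb1 and Tgfbr1, both higher in the KO-host library, have GC-rich promoters with 5 and 2 GC boxes and G or C at 75.2% and 74.8% of bases. Tgfb2 and Tgfbr2, lower at log2 read ratios of -0.31 and -0.10, have 0 GC boxes and G or C at 53.6% and 58.4% of bases. Both ratios lie between the quartiles of all genes with at least 100 reads (-0.47 and 0.32). Smad3, the fifth gene with an entry and also higher, has 2 GC boxes and 69.2%. Its log2 read ratio of 0.17 lies between those quartiles too. Across all 32851 promoter entries of the same length, 32.7% hold a GC box and the median share of G or C is 52.4%. SMAD boxes number 1 in Tgfb1, 0 in Tgfbr1, 3 in Tgfb2, 1 in Tgfbr2 and 1 in Smad3, and 82.9% of all entries hold at least 1. The double box GTCTAGAC, known for strong SMAD binding, was in none of the 5 and in 0.167% of all entries. The AP-1 motif TGANTCA (6.75% of entries) and the cAMP response element TGACGTCA (1.55%) were in none of the 5 either, while the TATA motif TATAAA (12.4%), searched on both strands like the others, was in Tgfb2 only. Tgfb3, Smad2, Smad4, Smad7 and Skil had no entry, and the printed promoters were picked by direction. With 5 genes these matches are a description of the letters and not a test, and a link to direction was not tested.

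**Figure D2:**
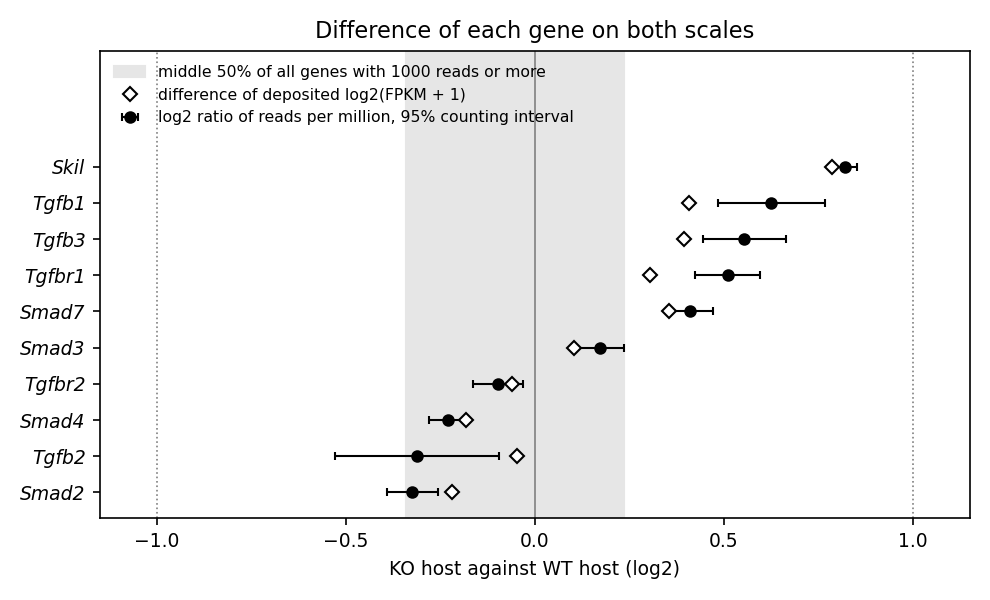
Difference between the KO-host and WT-host libraries for each gene, as the log2 ratio of RPM with its 95% counting interval (filled circles) and as the difference of the deposited log2(FPKM + 1) values (open diamonds). The grey band is the middle 50% of all genes with 1000 reads or more and dotted lines mark 2-fold; Skil, Tgfb1, Tgfb3, Tgfbr1 and Smad7 lie above the band and 0 points lie below it.

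Among the transducers, Smad3 was slightly higher in the KO-host library, while Smad2 and Smad4 were lower. Smad2 (chromosome 18, 76374651 to 76444035, plus strand) and Smad3 (chromosome 9, 63554049 to 63665277, minus strand) encode the SMADs that the receptor phosphorylates, of which SMAD3 binds DNA directly. Smad2 had 3020 reads in the KO-host library and 4216 in the WT-host library, or 129 and 162 RPM, 1.25-fold lower (counting interval 1.19 to 1.31). Smad3 had 4135 reads in the KO-host library and 4091 in the WT-host library, a ratio of 1.13 (1.08 to 1.18) after scaling to library totals. Within this pair Smad3 held 57.8% of the reads in the KO-host library (56.6% to 58.9%) and 49.2% in the WT-host library (48.2% to 50.3%). Smad4 (chromosome 18, 73772080 to 73836852, minus strand), the partner that SMAD2 and SMAD3 share with the BMP pathway, had 5356 reads in the KO-host library and 6998 in the WT-host library, 1.17-fold lower (1.13 to 1.21). All 3 transducers lay inside the middle 50% of genes with at least 1000 reads (log2 ratios of -0.34 to 0.24).

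The inhibitors were both higher in the KO-host library, and Skil differed most of the 10 genes. Skil (ENSMUSG00000027660, chromosome 3, 31149207 to 31176727, plus strand) encodes SnoN, a co-repressor that binds SMAD complexes and is degraded and then re-induced when the pathway is active. It had 19754 reads in the KO-host library and 12477 in the WT-host library, or FPKM 30.7 and 17.4. The ratio was 1.77 (counting interval 1.73 to 1.81), and the deposited log2 values differed by 0.79. Of the genes with at least 1000 reads, 4.51% had a ratio as high as Skil or higher, against 7.89% for Tgfb1, 9.81% for Tgfb3 and 11.4% for Tgfbr1. Smad7 (chromosome 18, 75500600 to 75529007, plus strand) encodes the inhibitory SMAD that blocks the type I receptor and recruits ubiquitin ligases to it. It had 4960 reads in the KO-host library and 4161 in the WT-host library, or 212 and 160 RPM, a ratio of 1.33 (1.28 to 1.39), and 15.1% of genes with at least 1000 reads had a ratio as high. Set against Smad4, the reads of Skil were 3.69-fold those of Smad4 in the KO-host library and 1.78-fold in the WT-host library, a ratio of ratios of 2.07 (1.98 to 2.16). Smad7 over Smad4 was 0.926 in the KO-host library and 0.595 in the WT-host library, a ratio of ratios of 1.56 (1.47 to 1.64). Setting a higher gene against a lower one widens the contrast, and 0 of the 10 genes were themselves 2-fold higher. These intervals, like those of the ligand and receptor pairs above, cover counting error only. No share over all gene pairs is at hand to set beside them.

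Depth sets how these values can be read. Over both libraries the 10 genes had between 727 reads (Tgfb2) and 32231 reads (Skil). Of genes with 300 to 1000 reads, where Tgfb2 lies, 32.8% differed 2-fold in one direction or the other, against 11.3% of those with 1000 to 3000 reads (Tgfb1 and Tgfb3) and 3.01% of those with 3000 or more, the depth of the other 7 genes. With at least 1000 reads, 2.84% of 6613 genes were 2-fold higher and 3.92% lower, and at 1.5-fold these shares were 8.94% and 12.4%. Counting intervals lay above 1 for 37.6% and below 1 for 45.9% of genes of that depth. The 9 pathway genes of that depth had a median log2 read ratio of 0.41, beside -0.05 for all genes of that depth.

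**Figure D3:**
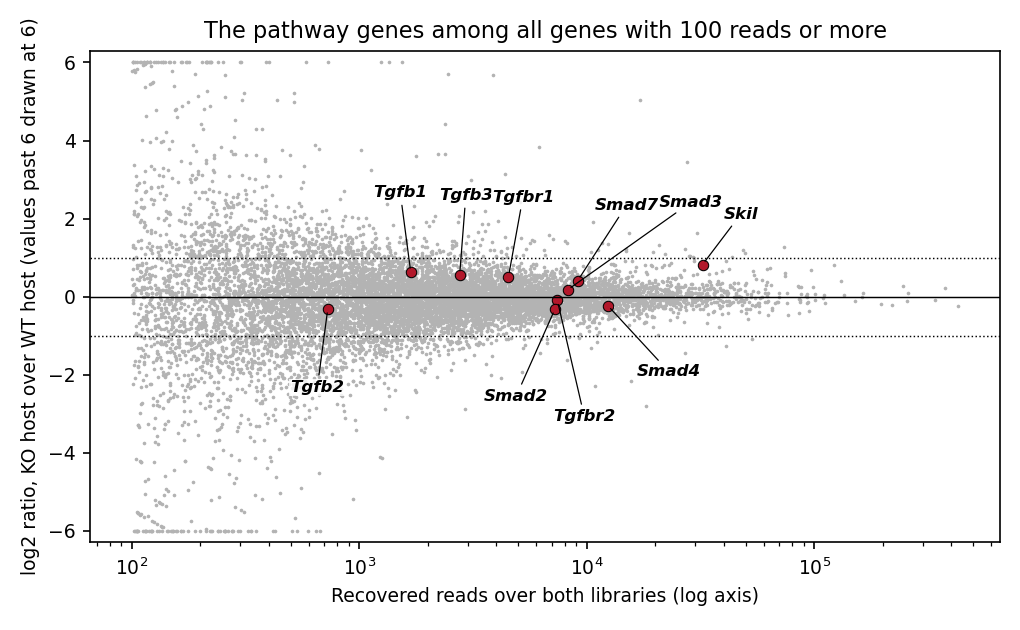
Log2 ratio of RPM, KO host over WT host, against the recovered reads over both libraries (log axis) for every gene with at least 100 reads and a value above 0 in each library (grey), with the 10 pathway genes in red. The spread of all genes narrows with depth, and all 10 red points lie between the dotted 2-fold lines; values past 6 are drawn at 6.

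The deposited scale showed the same signs with smaller sizes, because 1 was added to FPKM values that are low for genes with long introns. Tgfbr1 had a log2 read ratio of 0.51 but a deposited difference of 0.30, from FPKM 1.76 in the KO-host library and 1.24 in the WT-host library. For Tgfb2, at FPKM 0.157 in the KO-host library and 0.195 in the WT-host library, the log2 read ratio of -0.31 became a deposited difference of -0.05. Skil, at a much higher FPKM, kept nearly its whole difference (0.82 in reads and 0.79 as deposited). The other deposited differences were 0.41 for Tgfb1, 0.39 for Tgfb3, 0.36 for Smad7, 0.10 for Smad3, -0.06 for Tgfbr2, -0.18 for Smad4 and -0.22 for Smad2.

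Levels of different genes were compared per kilobase of exon, with exon lengths from GENCODE M21 in place of the genomic span. All reads of a gene were divided by that length. The sources used here do not say whether reads in introns were counted, so the order of genes on this scale is uncertain. In RPM per kilobase of exon, the KO-host library had Skil at 125.7, Smad4 at 64.1, Smad7 at 48.4 and Smad3 at 34.7, then Tgfb3 at 19.8, Tgfb1 at 19.2, Tgfbr2 at 17.7, Tgfbr1 at 16.9 and Smad2 at 15.0, and Tgfb2 last at 2.51. In the WT-host library the level was highest for Smad4 at 75.1 RPM per kilobase of exon, followed by Skil at 71.2, Smad7 at 36.4, Smad3 at 30.8, Tgfbr2 at 18.9, Smad2 at 18.8, Tgfb3 at 13.5, Tgfb1 at 12.5, Tgfbr1 at 11.9 and Tgfb2 at 3.11. Skil and Smad4 thus changed places between the libraries on this scale. Their exact Poisson intervals, which cover counting error only and not the choice of length, did not overlap in either. On the deposited FPKM scale Skil was first and Tgfb2 last in both libraries, with Skil at 17.4 and Smad4 at 4.14 in the WT-host library. Neighbours whose counting intervals overlapped were Tgfb3 and Tgfb1 in both libraries, Tgfb1 and Tgfbr2 as well as Tgfbr2 and Tgfbr1 in the KO-host library, and Tgfbr2 and Smad2 as well as Tgfb1 and Tgfbr1 in the WT-host library. Among ligands counted this way, Tgfb3 held 47.7% in the KO-host library and 46.5% in the WT-host library, Tgfb1 46.2% and 42.8%, and Tgfb2 6.04% and 10.7%.

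**Figure D4:**
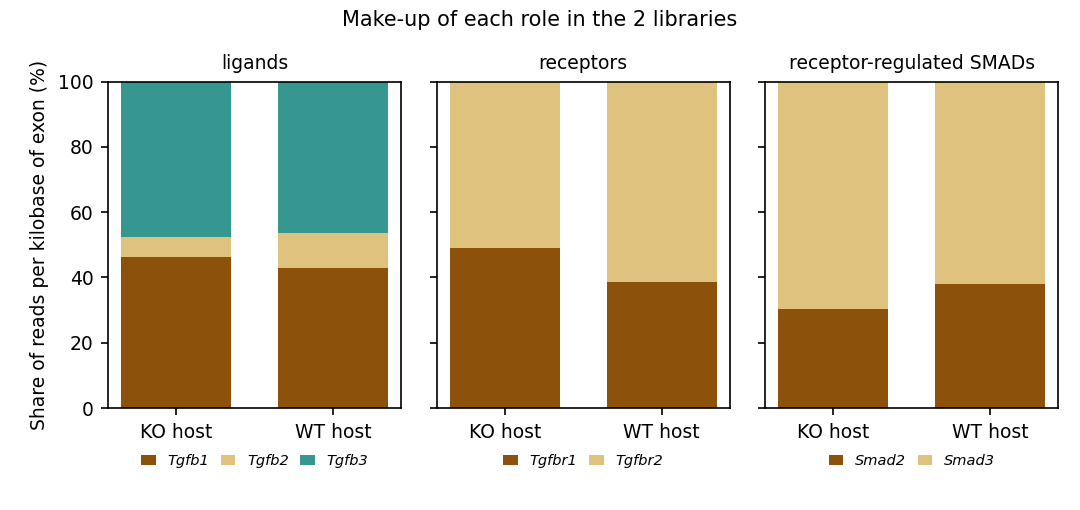
Make-up of the ligands, receptors and receptor-regulated SMADs in each library, as the share of reads per kilobase of exon (%), with the KO-host library left of the WT-host library and 1 library each. Tgfb2 takes a smaller part of the ligands, and Tgfbr1 and Smad3 larger parts of their pairs, in the KO-host library.

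The wider pathway was described with 6 lists of other genes, of which 105 genes had at least 100 reads and a value above 0 in both libraries. Of these, 5 were 2-fold higher in the KO-host library and 12 were 2-fold lower, against 8.43% higher and 11.4% lower among all genes, and their median log2 read ratio was -0.03. For latent complexes and ligand activation, 0 of 17 genes were 2-fold higher, 3 were lower, and the median was -0.08. The most abundant were the integrin subunits Itgb1, at 52951 reads in the KO-host library and 57718 in the WT-host library (ratio 1.02), and Itgav, whose heterodimers release latent TGF-beta, at 41308 and 51844 reads (1.13-fold lower). The 3 lower genes were Mmp2, a gelatinase, at 563 reads in the KO-host library and 2028 in the WT-host library, 3.23-fold lower (counting interval 2.94 to 3.55), Emilin1, a matrix protein that binds the TGF-beta precursor, at 757 and 1939 reads, 2.30-fold lower, and Itgb3, at 33 and 96 reads.

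Co-receptors and receptor regulators also had 0 of 19 genes 2-fold higher and 1 lower, with a median of -0.13. The shares over all genes with at least 100 reads were 8.43% higher and 11.4% lower. The lower one was Eng, a co-receptor of endothelial cells, at 18 reads in the KO-host library and 98 in the WT-host library. Endothelial markers (4 of 10 listed) summed to 14.5 RPM in the KO-host library and 18.5 RPM in the WT-host library. Of these 4, 3 were higher in the KO-host library and 1, Plvap, was lower. Plvap was at 2.48 RPM in the KO-host library and 13.3 RPM in the WT-host library. Without Plvap the sums were 12.0 RPM in the KO-host library and 5.18 RPM in the WT-host library. The part of these markers in the value of Eng was not tested. Cd109, a surface protein that binds TGF-beta and dampens its signalling, had 6764 reads in the KO-host library and 12839 in the WT-host library, 1.70-fold lower (1.65 to 1.75). Vasn, a membrane protein that traps TGF-beta, went the other way with 1714 and 1176 reads, a ratio of 1.63 (1.51 to 1.75). Pmepa1, a TGF-beta-induced inhibitor that keeps SMAD2 and SMAD3 from the receptor, had 7200 reads in the KO-host library and 6016 in the WT-host library, a ratio of 1.33 (1.29 to 1.38).

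Of the SMAD partners and co-repressors, 0 of 15 genes were 2-fold higher and 1 (Tgif2) was lower, with a median of -0.05. Over all genes with at least 100 reads these shares were 8.43% and 11.4%. Atf3, a stress-induced factor that SMAD3 binds, had 1102 reads in the KO-host library and 623 in the WT-host library, a ratio of 1.97 (1.79 to 2.18), and it passed 2-fold once the median of all genes was set to 0, which makes 1 of 15 higher. Runx1, at 10580 and 10323 reads, had a ratio of 1.14, and Sp1, the factor that binds GC boxes, was 1.22-fold lower at 9270 reads in the KO-host library and 12593 in the WT-host library. Tgif2, a co-repressor, was recovered at 1.21 and 351.6 reads in the KO-host and WT-host libraries, a 261-fold lower value with a counting interval of 56.3 to 12505, and since neither value is a whole read, it is uncertain how its reads were assigned. With whole reads only, or with at least 1000 reads, 0 genes of this list were 2-fold lower. Of all genes with at least 1000 reads, 3.92% were 2-fold lower. Smad6, the inhibitory SMAD of the BMP pathway, was listed at 0 in the KO-host library and had 117 reads in the WT-host library, so no ratio is given.

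Of the genes known as TGF-beta targets, 5 of 35 were 2-fold higher in the KO-host library and 5 were 2-fold lower, against 8.43% higher and 11.4% lower among all genes, and the median was -0.03. With so few genes these counts lie near the background. Fn1, the fibronectin gene, had 95174 reads in the KO-host library and 123660 in the WT-host library, 1.17-fold lower. The largest differences were of genes with few reads: Timp3, a protease inhibitor, at 126 reads in the KO-host library and 9 in the WT-host library, Pthlh, which encodes parathyroid hormone-related protein, at 91 and 14 reads, and Lox, a collagen crosslinking enzyme, at 15 and 217 reads. Among all genes with 100 to 300 reads, 56.0% differed 2-fold in one direction or the other and 18.4% had 5 reads or fewer in 1 library.

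The other members past 2-fold, named after their values were seen and so outside the naming rule, included matrix genes (Col1a1, Col3a1, Postn) and the smooth muscle actin gene Acta2 on the lower side. On the higher side they were the cytokine gene Il11, the cell cycle inhibitor gene Cdkn1a and the growth factor gene Pdgfb. Col1a1, Col3a1, Postn and Acta2 were 7.02-fold, 2.40-fold, 4.45-fold and 2.51-fold lower in the KO-host library, and Il11, Cdkn1a and Pdgfb had ratios of 3.24, 2.39 and 2.30. Col1a1 and Acta2 also stand in the fibroblast and pericyte marker lists, whose sums they themselves enter, as given above, and their part in these values was not tested. Without the genes of those marker lists, 5 of 32 targets were 2-fold higher, 3 were lower and the median was 0.01. Over all genes 8.43% were 2-fold higher and 11.4% were lower, and with so few targets a tilt to either side was not tested.

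The activin branch, a sister pathway that also signals through SMAD2 and SMAD3, had 0 of 8 genes 2-fold higher, 2 lower and a median of 0.57, with 6 of 8 above 0. Among all genes 8.43% were 2-fold higher, 11.4% were 2-fold lower and 45.6% were above 0. Inhba, the activin A subunit, had 8049 reads in the KO-host library and 5037 in the WT-host library, a ratio of 1.78 (1.72 to 1.85). Fst, which encodes follistatin, the activin antagonist, had 2756 and 2356 reads, a ratio of 1.30 (1.23 to 1.38). Acvr1b, a type I activin receptor, had 356 reads in the KO-host library and 217 in the WT-host library, a ratio of 1.83 (1.54 to 2.18). Gdf11, a ligand of this branch, was 3.27-fold lower at 125 and 456 reads, and the type II receptor Acvr2b was at 53 and 161 reads. For signalling by TGF-beta receptors outside the SMADs, 0 of 13 genes were past 2-fold in either direction and the median was 0.12. There Mapk8, the JNK1 kinase, had 1570 reads in the KO-host library and 933 in the WT-host library, a ratio of 1.88 (1.73 to 2.04), Tab1 had a ratio of 1.74 at 247 and 158 reads, and Map3k4 was 1.66-fold lower at 441 and 817 reads. Rhoa, with 30534 and 29837 reads, and Rock1, with 6352 and 6604 reads, had ratios of 1.14 and 1.07.

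**Figure D5:**
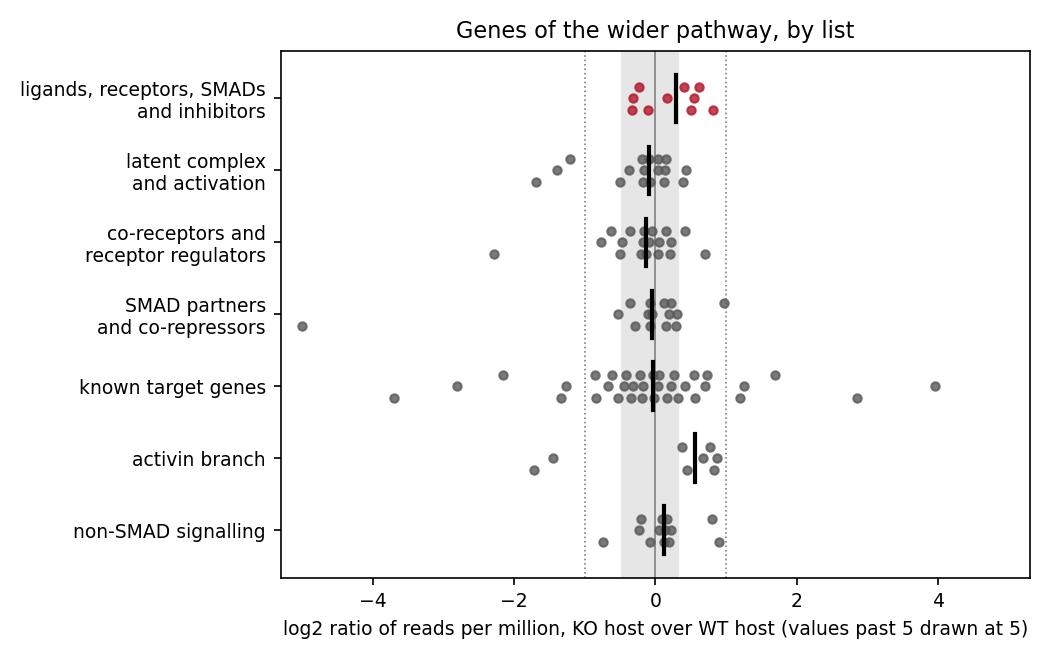
Log2 ratio of RPM, KO host over WT host, of the 10 core genes (red) and of the genes of 6 further pathway lists (grey points) with at least 100 reads, with the median of each list as a black bar. The band is the middle 50% of all genes with at least 100 reads and dotted lines mark 2-fold; the core genes lie within 2-fold, known targets reach past it on both sides, and 1 value beyond 5 (Tgif2) is drawn at 5.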

How the data were processed

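The authors deposited 1 table of log2(FPKM + 1) values, a scale given by the name of the table, with 1 column per library. The submitters' processing notes name STAR 2.7.8a, Partek and mm39, without their roles. Annotation release, strand handling, duplicates and filters: not given in the sources used here. Per the labels' protocols, ribosomal RNA was depleted from column-purified RNA and libraries were made with PrepX chemistry. FPKM times the length column summed to 1000000 in each library and that column equals stop minus start, so span and not transcript length was used. Library totals were recovered from the spacing of low values, which is that of single reads; of values under 1000 reads, 83.4% in the KO-host library and 84.9% in the WT-host library were whole within 0.1 read. Of the 10 genes, 8 were whole in both; Smad4 and Skil were off by up to 0.149 and 0.192 read. Another 155 genes with 100 reads or more were listed at 0 in 1 library and have no ratio.

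Python 3.11.15 with numpy 2.4.6, pandas 2.3.3 and scipy 1.17.1 was used, and the recovery was tested on simulated data. Exon lengths are unions over GENCODE M21 basic protein-coding transcripts (12650 genes matched by identifier), whose build is not that of the table. No replicate exists, so size rules replace tests: at least 100 reads over both libraries and 2-fold, or a deposited log2 difference of 1 at a mean of 1 or more. From each wider list, the 3 genes with the largest difference in either direction and the 2 with the most reads were named, except 1 target gene that is not reported here. The 10 genes and all lists were chosen with earlier results of these data known. With 2 libraries there is 1 difference per gene, so no gene is named for likeness of pattern.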

Additional observations from a re-analysis of the deposited data

How the results depend on the processing

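For the 10 genes, the count of 0 past 2-fold in either direction was the same under median centring, upper quartile scaling, totals without mitochondrial genes, minimums of 10 or 1000 reads and whole reads only; at 1.5-fold it was 2 higher. On the deposited scale it was 0 with 0.1 or 5 added and without the filter on the mean, and 1 higher at a difference of 0.5 (Skil), against 8.73% of all genes higher by that much. Their median log2 read ratio of 0.29 became 0.35 with the median of all genes set to 0, a shift of 0.06, and 0.41 with at least 1000 reads, which leaves out Tgfb2. Over all genes, 899 were 2-fold higher and 1210 lower; with at least 1000 reads these were 188 and 259, and at 1.5-fold 1676 and 2218. Over the wider lists, 5 were higher and 12 lower; with at least 1000 reads these were 0 and 5, at 1.5-fold 15 and 19, and with whole reads only 7 were lower. Fewer genes are counted under the higher minimum and the whole-read rule by construction. The exon-length scale, the target list without fibroblast and pericyte markers and the marker sums without 1 gene were chosen after seeing the data. No paired analysis was possible because each host genotype has 1 library, and for the same reason no library could be left out. Tgfb2 is limited most by depth.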
